A study of Homo sapiens with 24 samples.

Results

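The BCL11A protein of clone B carries 2 epitopes, HA and MYC, and its binding to chromatin was profiled through each of them with 3 libraries. These 6 libraries of the 24 in the series were chosen by antibody and clone, and each is a list of peaks from CUT&RUN, in which a nuclease tethered to an antibody cuts out the DNA beside the bound protein for sequencing. The cells were HUDEP-2, an established line of human erythroid progenitors, edited so that the BCL11A gene makes a protein with 3 copies of HA and 3 copies of MYC. Clone B is a single edited clone. It was grown with SCF, EPO, dexamethasone and doxycycline, with no further treatment, and the antibodies were diluted 100-fold. Other libraries are used below only where they were outside the choice: HA, MYC and TR4 antibody libraries of clone TB, which carries the same BCL11A tags and also TR4 (gene NR2C2) with FLAG and MYC tags, MYC and TR4 antibody libraries of clone T, which has the TR4 tags and untagged BCL11A, and 1 IgG library from each of the 3 clones. The labels number the libraries of each antibody 1 to 3 and do not say whether separate cultures were used, so the tests measure only how these libraries vary, and that variation may be technical.

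BCL11A is a zinc-finger repressor that silences the fetal γ-globin genes in adult red cells, works with the NuRD corepressor complex, and is known to recognise the sequence TGACCA. Because HA and MYC sit on the same protein molecule, libraries made with either antibody are aimed at the same protein by separate reagents. The MYC tag is a short peptide of the transcription factor MYC, which binds CACGTG with its partner MAX. Peaks of all 24 libraries were merged wherever they shared at least 1 base, those overlapping an IgG peak were dropped, and a region found in 2 or 3 of the 3 libraries of an antibody is called an HA region or a MYC region. An HA-alone region is an HA region with a peak in 0 of 3 MYC libraries, and a MYC-alone region is the reverse. The fold of a peak is its enrichment as the authors' peak caller gave it and is used only within its own list. A fold percentile is a peak's rank among the folds of its list, from 0 for the weakest to 100 for the strongest.

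7 promoters show what the 2 antibodies saw at sites they shared and at sites of one antibody. Each line holds the 250 bases before the start site on the gene's strand, 5′ to 3′, from RefSeq (GRCh38.p14); they were picked after the peaks had been seen. Capitals mark the motifs named beside each set. The first pair had peaks in all 6 libraries, and capitals mark TGACCA, or its reverse complement TGGTCA, and in FTL also ATTGG, the reverse complement of the CCAAT box.
RPS16: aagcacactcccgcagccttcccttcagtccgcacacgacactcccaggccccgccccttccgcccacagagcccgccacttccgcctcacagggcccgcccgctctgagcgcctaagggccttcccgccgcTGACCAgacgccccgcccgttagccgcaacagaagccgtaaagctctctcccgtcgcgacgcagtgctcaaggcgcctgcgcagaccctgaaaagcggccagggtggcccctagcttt
FTL: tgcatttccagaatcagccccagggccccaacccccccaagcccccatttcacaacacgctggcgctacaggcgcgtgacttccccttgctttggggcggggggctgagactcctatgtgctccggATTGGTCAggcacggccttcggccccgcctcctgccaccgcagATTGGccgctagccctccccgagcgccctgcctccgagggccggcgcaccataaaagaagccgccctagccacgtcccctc
At RPS16, a ribosomal protein gene (chr19:39435950-39436199, minus strand), TGACCA lay 118 to 113 bases before the start site. The summits, the positions of highest signal, fell 100, 100 and 108 bases before the start site with HA and 113, 105 and 101 bases before it with MYC. At FTL, the ferritin light chain gene (chr19:48965059-48965308, plus strand), TGGTCA lay 122 to 117 bases before the start site and shared 3 bases with an ATTGG at 124 to 120, and a further ATTGG lay at 81 to 77. FTL summits fell 117, 117 and 107 bases before the start site with HA and 117, 106 and 117 with MYC. In both promoters the 2 antibodies put their summits within 13 bases of each other.

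The next set had peaks of the HA antibody with 0 of 3 MYC libraries at the promoter. Capitals mark CACGTG, which occurs only in LDHA here; RPS3 and SIRT4 held neither TGACCA nor CACGTG in these bases.
RPS3: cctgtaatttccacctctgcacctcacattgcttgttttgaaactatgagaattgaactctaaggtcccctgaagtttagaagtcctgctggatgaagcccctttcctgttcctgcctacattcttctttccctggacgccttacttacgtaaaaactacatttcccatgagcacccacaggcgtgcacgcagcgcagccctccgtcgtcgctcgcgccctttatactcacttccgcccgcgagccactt
SIRT4: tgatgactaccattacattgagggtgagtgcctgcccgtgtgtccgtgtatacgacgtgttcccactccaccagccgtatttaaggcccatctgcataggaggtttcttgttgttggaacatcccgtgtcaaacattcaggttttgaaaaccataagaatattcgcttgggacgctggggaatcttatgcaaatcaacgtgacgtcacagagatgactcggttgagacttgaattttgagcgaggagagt
LDHA: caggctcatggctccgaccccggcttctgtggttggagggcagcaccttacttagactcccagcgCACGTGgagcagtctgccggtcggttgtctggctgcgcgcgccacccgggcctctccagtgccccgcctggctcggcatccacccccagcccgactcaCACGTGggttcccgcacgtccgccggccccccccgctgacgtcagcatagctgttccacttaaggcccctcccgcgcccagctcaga
RPS3 encodes a ribosomal protein (chr11:75399268-75399517, plus strand), SIRT4 a mitochondrial sirtuin (chr12:120291939-120292188, plus strand) and LDHA a subunit of lactate dehydrogenase (chr11:18394313-18394562, plus strand). RPS3 and SIRT4 had peaks in 3 of 3 HA libraries and LDHA in replicates 1 and 2. The HA summits of RPS3 lay 0, 10 and 56 bases before the start site, the first at the start site itself, just past the bases shown. The HA summits of SIRT4 lay 115, 131 and 149 bases before the start site. Those of LDHA lay 98 and 137 bases before it, between its 2 copies of CACGTG at 185 to 180 and 87 to 82. The last set had peaks in 3 of 3 MYC and 0 of 3 HA libraries, and capitals mark CACGTG.
RREB1: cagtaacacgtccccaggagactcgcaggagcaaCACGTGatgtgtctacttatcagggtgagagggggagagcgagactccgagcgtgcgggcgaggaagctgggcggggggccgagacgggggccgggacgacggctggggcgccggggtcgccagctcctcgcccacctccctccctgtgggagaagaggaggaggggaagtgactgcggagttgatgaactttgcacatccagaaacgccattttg
FNDC3B: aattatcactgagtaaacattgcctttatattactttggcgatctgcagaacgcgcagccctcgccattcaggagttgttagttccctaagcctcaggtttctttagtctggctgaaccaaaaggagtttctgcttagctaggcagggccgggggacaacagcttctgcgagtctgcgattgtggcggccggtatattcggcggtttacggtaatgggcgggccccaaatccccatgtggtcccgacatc
RREB1 encodes a zinc-finger transcription factor (chr6:7107711-7107960, plus strand) and FNDC3B a membrane protein (chr3:172039328-172039577, plus strand). The MYC summits of RREB1 lay 224, 235 and 217 bases before the start site, beside a CACGTG at 216 to 211, and those of FNDC3B, which held neither motif, lay 84, 106 and 98 bases before it. A motif match describes the letters of a promoter and says nothing of which protein was bound.

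The peak lists of the 2 antibodies were of similar length, and replicate 3 was short with both. The HA lists held 25850, 29178 and 12284 peaks and the MYC lists 29363, 31432 and 13429, means of 22437 ± 8949 and 24741 ± 9851 (SD, n = 3 each). The MYC list was the longer in each of the 3 numbers, HA minus MYC being −3513, −2254 and −1145 peaks, yet the ranges of the antibodies overlapped (exact permutation test, two-sided, p = 0.5, adjusted p = 0.857 over 12 measures). With 3 libraries against 3 no two-sided p can go below 0.1. The IgG lists held 2036, 2244 and 4828 peaks, and 1.28% ± 0.456 of HA peaks and 1.103% ± 0.122 of MYC peaks (SD, n = 3 each) lay in regions with an IgG peak. Read counts were not analysed here, so the depth of each library is unknown.

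Most sites of one antibody were sites of the other. Of 79570 merged regions, 7349 had an IgG peak, and 46918 of the rest held a peak of 1 or more of the 6 libraries. Among these, 19824 (42.3%) were HA regions, 21798 (46.5%) were MYC regions and 17296 (36.9%) were both. The shared regions were 87.2% of HA regions and 79.3% of MYC regions. Counting a single library of the other antibody as enough, 97.0% of HA regions had a MYC peak and 94.1% of MYC regions had an HA peak. HA-alone regions numbered 597 (1.27% of the 46918, and 3.01% of HA regions) and MYC-alone regions 1283 (2.73%, and 5.89% of MYC regions). A further 1931 HA regions had a peak in 1 MYC library, and 3219 MYC regions had a peak in 1 HA library.

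The clearest one-antibody pattern, 3 libraries against 0, was rare. It was found at 28 regions for HA (0.0597%) and at 57 for MYC (0.121%), against 7826 regions with a peak in all 6 libraries. No single region can pass a test in this design, since Fisher's exact test of 3 libraries against 0 gives 0.1. The HA-alone regions were carried by replicates 1 and 2 in 492 of 597 cases (82.4%), and the MYC-alone regions in 1103 of 1283 (86.0%). Leaving out replicate 1 or 2 of either antibody moved the counts of one-antibody regions by more than 1.5 times. They fell where an antibody's own library was left out. The rule of 2 libraries was kept, so both libraries left, the short replicate 3 among them, then needed a peak. The counts rose where a library of the other antibody was left out, since its peaks no longer kept a region out. HA-alone regions numbered 77 without HA replicate 1, 56 without HA replicate 2, 1286 without MYC replicate 1 and 1808 without MYC replicate 2. MYC-alone regions numbered 2332 and 3368 without HA replicates 1 and 2, and 140 and 97 without MYC replicates 1 and 2. With every list limited to its 12284 strongest peaks, the length of the shortest, there were 596 HA-alone and 563 MYC-alone regions, and the excess of MYC-alone regions was gone.

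**Figure D1:**
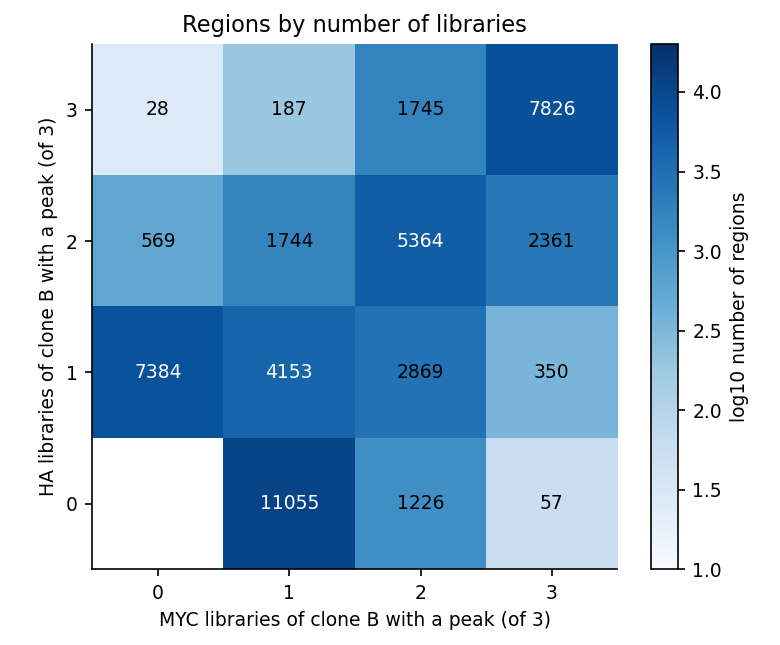
Number of regions by how many of the 3 HA libraries (vertical axis) and of the 3 MYC libraries (horizontal axis) of clone B had a peak, with colour on a log10 scale. The corners hold 7826 regions with all 6 libraries, 28 with HA alone in 3 of 3 and 57 with MYC alone in 3 of 3, and the bottom and left edges hold 11055 and 7384 regions with a peak in a single library.

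Agreement followed peak strength, which is a description of the same lists the classes came from. HA regions were divided into 10 equal bins by their mean fold percentile. In the weakest bin 59.1% of HA regions were MYC regions and 12.4% had no MYC peak, and in the strongest 99.9% were MYC regions and 0 of 1983 lacked a MYC peak. For MYC regions the weakest bin had 40.2% that were HA regions and 23.1% with no HA peak, and the strongest had 99.9% and 0. The median fold percentile in the HA lists was 64.7 for shared and 26.4 for HA-alone regions, and in the MYC lists 67.7 for shared and 27.9 for MYC-alone regions. Just inside the rule, regions with peaks in 2 HA libraries and no MYC library had a median −log10 q of 6.33 in the HA lists; just outside it, those with 2 HA and 1 MYC library had 7.61 and those with 1 HA and no MYC library 4.41. The matching MYC values were 6.80, 8.43 and 4.45.

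**Figure D2:**
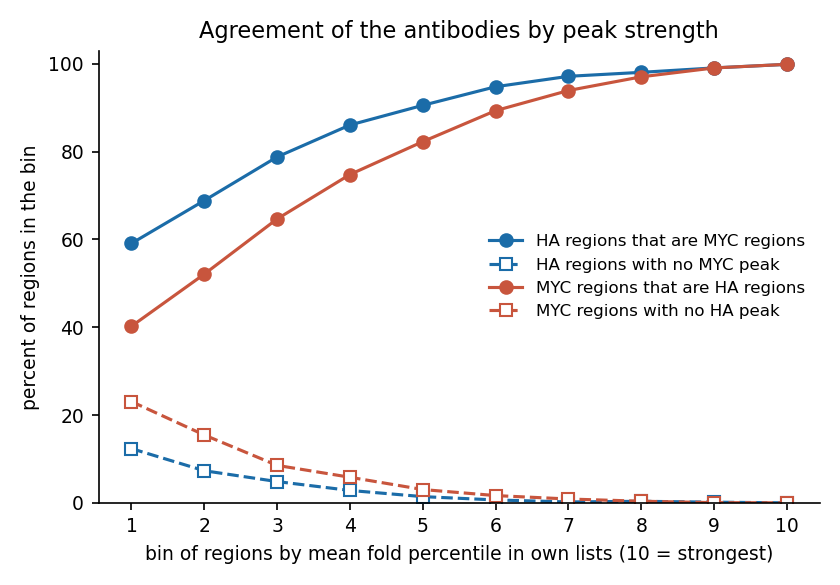
Percent of HA regions (blue) and MYC regions (red) in each of 10 bins of mean fold percentile that were also regions of the other antibody (filled circles, solid lines) or had no peak of it (open squares, dashed lines). The solid lines rise from 59.1% and 40.2% in the weakest bin to 99.9% in the strongest, and the dashed lines fall from 12.4% and 23.1% to 0.

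One-antibody regions were described by width and place, with no test, since regions are not replicates. The median width of merged regions was 296 bases for shared, 156 for HA-alone and 160 for MYC-alone regions. Within 1 kb of an end of a protein-coding gene lay 48.8% of shared regions, 31.5% of HA-alone regions (182 of 577 on the primary chromosomes) and 30.0% of MYC-alone regions (370 of 1235). Over the 46918 regions the share was 32.5%, and over regions of a single library 17.7%. Inside a gene record but away from its ends lay 30.3% of shared, 35.7% of HA-alone and 40.2% of MYC-alone regions.

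The strongest shared sites had folds well above those of the one-antibody sites named after them. The top region lay at KMT5A, a histone H4 lysine methyltransferase gene (chr12:123383326-123384205), with folds of 172, 177 and 85.3 in the HA lists and 232, 164 and 121 in the MYC lists. SPRYD7 followed (chr13:49936268-49936669) with 100.4, 146 and 49.4 in the HA lists and 134, 133 and 54.8 in the MYC lists. The others lay inside CPAMD8, at the facing ends of NLGN2 and TMEM256, at PNMT and TCAP, and inside GSE1, 212463 bases from its nearest end. All 6 of these regions were found again in every HA library and every MYC library of clone TB. In clone T, where TR4 but not BCL11A is tagged, the KMT5A and NLGN2 regions had peaks in 3 of 3 MYC libraries. There the SPRYD7, CPAMD8 and PNMT regions had peaks in 2 MYC libraries and the GSE1 region in 0.

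Among HA-alone regions with 3 of 3 libraries, the first by mean fold percentile was the SIRT4 region (chr12:120291990-120292271), with folds of 16.7, 12.8 and 7.39 and no MYC peak. SIRT4 as a gene had regions of both antibodies, because MYC replicates 1 and 2 had peaks elsewhere near its ends. The second lay inside LIN54, whose product is a subunit of the DREAM cell-cycle complex (chr4:82983546-82983736; folds 7.93, 15.1 and 8.25). The RPS3 region was next (chr11:75399372-75399558; 10.96, 10.03 and 7.11). In clone TB the SIRT4 region had peaks in 3 HA libraries and 0 MYC libraries, the LIN54 region in 1 and 0, and the RPS3 region in 2 and 3. The other 5 of the first 8 lay inside NEK7, inside TEX14 (791 bases from IGBP1C), 5371 bases from SLC25A35, 32003 bases from PPIAL4F and, as the nearest gene, 806398 bases from GPC5. Of the 8, 3 had peaks in 3 HA libraries of clone TB, and 6 had none in its MYC libraries.

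Among MYC-alone regions with 3 of 3 libraries, the first by the same order lay inside C2CD3, a centriole gene (chr11:74019299-74019599; folds 11.7, 10.2 and 9.10). The next lay inside PFKFB3, which encodes a regulator of glycolysis (chr10:6202740-6202936; 8.73, 13.1 and 9.38), and 1093 bases from ABCB8 (chr7:151027112-151027357; 11.7, 12.3 and 7.75). The RREB1 region (chr6:7107607-7107929) had folds of 12.2, 11.6 and 7.68, and the FNDC3B region (chr3:172039424-172039595) 11.1, 12.4 and 6.18. In clone TB the C2CD3 region had peaks in 3 HA libraries and 3 MYC libraries, and also in 3 MYC libraries of clone T, and the FNDC3B and USP24 regions in none of them. The regions at FAM161A and P4HTM made up the 8. RREB1 as a gene had regions of both antibodies, and FNDC3B had 1 HA peak elsewhere near its ends.

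By the Jaccard index, which also depends on list length, libraries with the same number were the most alike across antibodies. The Jaccard index, the regions 2 libraries share over the regions either has, was 0.574, 0.615 and 0.510 for the HA and MYC libraries with the same number. It averaged 0.428 (0.349 to 0.566) over the 6 pairs of the same antibody and 0.424 (0.335 to 0.563) over the 6 pairs of other antibody and other number. Pairs within an antibody were not more alike than pairs between antibodies: the mean was 0.428 within and 0.472 between (exact permutation test, one-sided, p = 0.7). The between mean holds the 3 same-number pairs and the within mean can hold none, so this test does not separate antibody from number. Without the same-number pairs the means were 0.428 within and 0.424 between. Each of the 6 libraries was most like the one of the other antibody with its own number. Among the 6 ways to pair the numbers the labelled pairing had the highest similarity (exact permutation test, one-sided, p = 0.167, the smallest these pairings allow). Between antibodies, same-number pairs exceeded other-number pairs by 0.142 in the full lists and by 0.0621 with lists of equal length. Pairs with a replicate 3 library had a Jaccard index of 0.335 to 0.389, apart from the same-number pair at 0.510.

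The antibodies placed their summits close together. In the 7826 regions with peaks in all 6 libraries, the median distance between HA and MYC summits of the same number was 20, 17 and 26 bases, and 90.5%, 91.4% and 87.0% of the summits lay within 100 bases of each other. Over all pairs the median distance averaged 22.4 bases within and 22.2 between antibodies (exact permutation test, one-sided, p = 0.5). The between mean includes the 3 same-number pairs, which averaged 21 bases. Pairs of other antibody and other number averaged 22.8 bases. Across these regions the folds of same-numbered HA and MYC libraries had Spearman correlations of 0.777, 0.798 and 0.657, given as a description over regions of libraries that share a number. Pairs within an antibody had 0.601 to 0.772.

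**Figure D3:**
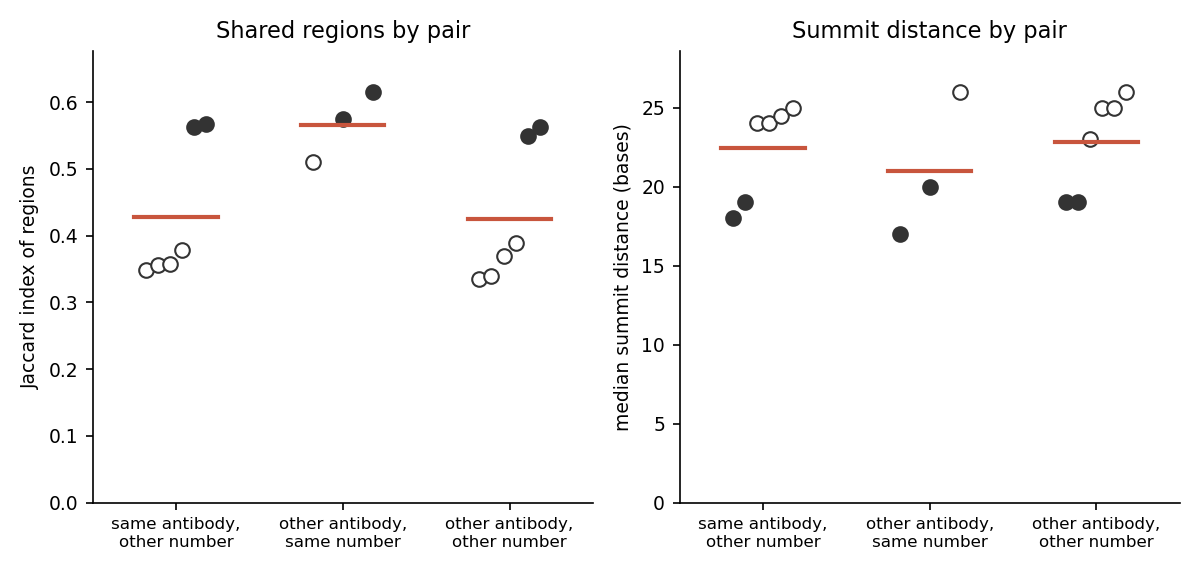
Jaccard index (left) and median summit distance in bases (right) for the 15 pairs of libraries of clone B, 1 point per pair, with open points for pairs that include a replicate 3 library and red lines at the means. Same-number pairs of different antibodies average 0.566 on the left, against 0.428 for pairs of one antibody, and all medians on the right lie between 17 and 26 bases.

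Gene ends, tested by library, gave no called difference between the antibodies. None was possible, since the smallest p of the exact permutation test, 0.1, lies above the threshold of 0.05. The share of peaks within 1 kb of a gene end was 41.9%, 42.4% and 45.1% in the HA lists and 40.3%, 40.2% and 44.2% in the MYC lists, 43.1% ± 1.72 against 41.6% ± 2.31 (SD, n = 3 each; exact permutation test, p = 0.5, adjusted p = 0.857). HA was higher in 3 of 3 numbers, and the ranges overlapped. The share of peaks in the HA regions of clone TB was 63.0%, 56.7% and 79.1% for HA and 56.6%, 52.9% and 75.3% for MYC, and again HA was higher in 3 of 3 numbers without passing (exact permutation test, p = 0.5, adjusted p = 0.857). The share of peaks in the MYC regions of clone T, whose BCL11A has no tag, was 34.5% ± 8.05 for HA and 32.2% ± 8.17 for MYC (SD, n = 3 each; exact permutation test, p = 0.5, adjusted p = 0.857). The mean share there was 2.33 percentage points higher for HA than for MYC, and 0.00776 with lists of equal length; for the HA regions of clone TB the difference of 4.66 became 1.40. Whether the antibody also recognised the cells' own MYC was not tested. The median peak width was 150 bases ± 2.65 with HA and 153 ± 4.62 with MYC (SD, n = 3 each; exact permutation test, p = 0.5, adjusted p = 0.857).

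**Figure D4:**
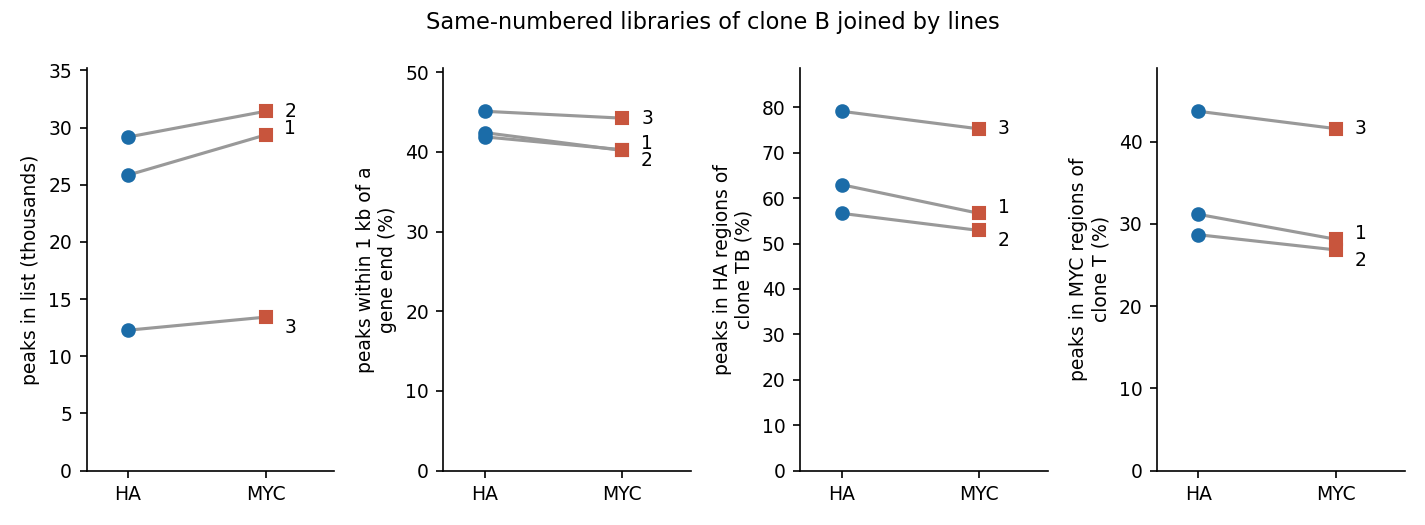
From left to right, the number of peaks (axis in units of 1000), and the percent of peaks within 1 kb of a gene end, in the HA regions of clone TB and in the MYC regions of clone T, for HA (blue circles) and MYC (red squares) libraries of clone B, with same-numbered libraries joined and the number at the right. In each panel all 3 lines run the same way, and replicate 3 stands apart from the other two.

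In clone TB, where MYC is also on TR4, the difference at gene ends had the opposite sign in the full lists. There the HA lists had 40.05% ± 0.518 and the MYC lists 43.2% ± 0.908 of peaks at gene ends (SD, n = 3 each). HA minus MYC was 1.57 percentage points in clone B and −3.13 in clone TB, a difference of 4.70 that did not pass after adjustment over 2 measures (exact permutation of antibody labels within each clone, 400 regroupings, p = 0.04, adjusted p = 0.08). With lists of equal length it was 4.72 (the same exact permutation test, adjusted p = 0.45), but HA minus MYC was then negative in clone B too, at −0.391, and the signs were no longer opposite.

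Libraries outside the choice gave an independent reading of the one-antibody regions. HA-alone regions had a peak in 34.3%, 34.8% and 10.7% of cases in the 3 HA libraries of clone TB, and MYC-alone regions in 22.8%, 23.9% and 7.79%, so that the share was higher for HA-alone regions in each of the 3. In the MYC libraries of clone TB the shares were 30.5%, 25.3% and 19.9% for HA-alone and 30.8%, 27.2% and 18.8% for MYC-alone regions, nearly equal. The ratio of MYC-alone to HA-alone shares was 0.693 ± 0.0315 with HA and 1.01 ± 0.0666 with MYC in clone TB (SD, n = 3 each), and the libraries of the 2 antibodies did not overlap. The exact permutation test gave p = 0.1, the smallest this design allows, and adjusted p = 0.2 over 8 comparisons, so the difference was not called. In the MYC libraries of clone T the ratio was 0.824 ± 0.0354 and in its TR4 libraries 0.800 ± 0.0557 (SD, n = 3 each). In the TR4 libraries of clone TB it was 1.05, 0.997 and 0.603, a mean of 0.885 ± 0.246 (SD, n = 3) whose difference from its MYC libraries was not called (exact permutation test, p = 0.6, adjusted p = 0.686). Shared regions had a peak in 82.8%, 84.7% and 55.7% of cases in the HA libraries of clone TB and in 84.3%, 82.0% and 74.1% in its MYC libraries, well above either one-antibody class. All regions of the 6 libraries together had 41.4%, 43.2% and 24.3% with HA and 43.5%, 41.4% and 35.2% with MYC.

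**Figure D5:**
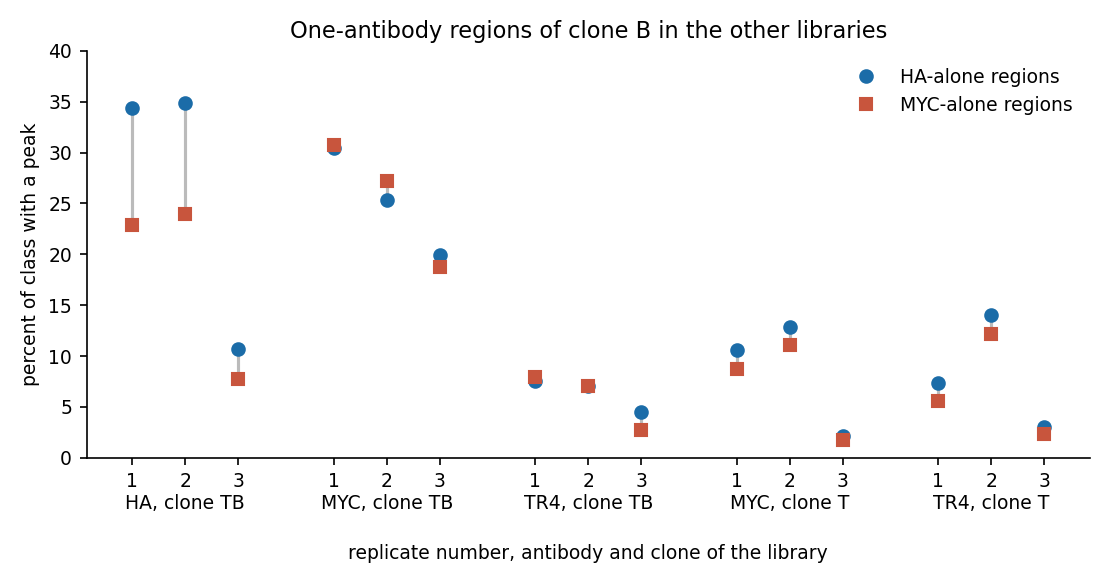
Percent of HA-alone (blue circles) and MYC-alone (red squares) regions of clone B with a peak in each of the 15 target libraries of clones TB and T, by antibody and replicate number. HA-alone regions stand higher in all 3 HA libraries of clone TB (34.3% against 22.8% in replicate 1), and the classes lie close together in its MYC libraries.

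At the level of genes, most bound genes had regions of both antibodies, and few had one antibody only. A gene was counted by its libraries with a peak within 1 kb of either end of its record, and is said to have an HA or MYC region where 2 or 3 libraries had one, even if their peaks lay in different regions. Of 20037 protein-coding genes, 8487 (42.4%) had an HA region, 8960 (44.7%) a MYC region and 8083 (40.3%) both. HA-alone genes, with at least 2 HA libraries and 0 MYC libraries, numbered 77 (0.384%), and MYC-alone genes 166 (0.828%). A further 327 genes had an HA region and 1 MYC library, 711 a MYC region and 1 HA library, and 9201 had no peak. Only 1 gene had HA in 3 of 3 and MYC in 0 (0.00499%), RPS3, and 8 had the reverse (0.0399%): CTSB, EPHB6, H2AB2, MATN2, PCGF6, PLAAT5, RALGPS2 and RNF213. Of these 8, RNF213 and H2AB2 had no single region with 3 MYC and 0 HA libraries. Of the 77 HA-alone genes 69 lay at an HA-alone region, and of the 166 MYC-alone genes 151 at a MYC-alone region. Of the 217 genes at an HA-alone region, 129 (59.4%) counted for both antibodies, through peaks at either end of the gene. Of the 421 genes at a MYC-alone region, 222 (52.7%) did. HA-alone genes numbered 4 and 2 without HA replicates 1 and 2 and 175 and 302 without MYC replicates 1 and 2, and MYC-alone genes numbered 347, 686, 10 and 11. With lists of equal length they were 192 and 208.

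The first HA-alone genes, by number of libraries and then mean fold percentile, were of several kinds. RPS3 had folds of 10.96, 10.03 and 7.11. EIF4A2, an RNA helicase of translation initiation, had 17.5 and 12.9 in replicates 1 and 2. HYPK, a partner of the N-terminal acetyltransferase NatA, shared its region with SERINC4 (9.91 and 11.8). H4C6, a histone H4 gene (12.6 and 7.65), and RPL21, a ribosomal protein gene (8.24 and 8.57), belong to families with near-identical copies, so their assignment is uncertain. KARS1, the lysyl-tRNA synthetase gene, shared its region with the neighbouring telomere gene TERF2IP (10.4 and 8.65), and peaks lay at both in all 15 target libraries of the other clones. At TAF7, a subunit of TFIID, the folds were 10.1 and 7.54, at MYD88, the adaptor of Toll-like receptors, 6.99 and 12.5, and at STRAP, an RNA-binding adaptor, 10.3 and 7.09. LDHA had 8.24 and 6.79. SMIM15 (11.5 and 9.05) and UNC119B (8.65 and 8.29) complete the genes named by rank or list. With the window widened to 5 kb, KARS1 and UNC119B had 1 library fewer with HA than with MYC, a difference of −1 in place of 2, and LDHA, MYD88 and SERINC4 a difference of 0.

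The MYC-alone genes with 3 libraries against 0 had weak folds. EPHB6, a kinase-dead ephrin receptor gene, had 6.55, 8.70 and 7.22, RNF213, a large ubiquitin ligase gene, 11.2, 6.53 and 5.67, and CTSB, the gene of the lysosomal protease cathepsin B, 6.77, 6.32 and 6.23. PLAAT5 had 6.18, 6.84 and 6.10, MATN2 6.86, 6.83 and 5.27, RALGPS2 6.97, 5.56 and 4.84, and PCGF6, a polycomb subunit gene, 7.47, 4.07 and 4.31. H2AB2 (4.36, 7.25 and 5.05) is a histone variant gene with near-identical copies. The strongest with 2 libraries were ALOX5, the leukotriene enzyme arachidonate 5-lipoxygenase (12.4 and 14.5), CORO1A, an actin regulator of blood cells (14.5 and 11.6), ANKRD28 (10.9 and 13.1) and THRA, the thyroid hormone receptor α gene (12.8 and 10.0). These genes also depended on settings. With windows at the first listed RefSeq start site only, EPHB6, H2AB2 and ANKRD28 had a difference of 0 libraries (CTSB, MATN2, PLAAT5 and ALOX5 have no entry there and no value), at 5 kb CORO1A did, at 500 bases THRA and H2AB2, and with lists of equal length RALGPS2 and PCGF6.

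Clone TB sorted the one-antibody genes further. Of the 77 HA-alone genes, 29 (37.7%) had an HA region there and 26 a MYC region; of the 166 MYC-alone genes, 34 (20.5%) had an HA region and 55 (33.1%) a MYC region. Of genes with both antibodies in clone B, 88.3% and 92.9% did. 17 HA-alone genes had regions of both antibodies in clone TB: CEBPZOS, COG4, H4C6, KARS1, KIF3B, LDHA, MRPS18B, OSGIN1, PGAP1, PPP1R10, PSMD11, RPS3, RXRB, SF3B3, SMIM15, SULT6B1 and TERF2IP. 12 had an HA region only, which here means no MYC region: BUD13, DDX3X, EIF4A2, H2AC12, HYPK, NBAS, NUBPL, RPL21, SERINC4, STRAP, TMEM200B and ZPR1. 9 had a MYC region but no HA region: ATAD3C, ATL2, COG5, DUS4L, DUS4L-BCAP29, SLC29A3, TRDMT1, ZNF468 and ZNF525. In 20 there were peaks in at most 1 library of each antibody, namely ADAMTS6, ALG13, ARMCX6, ATP6V1E2, CHCT1, CHMP1B, COL1A1, DUXB, FCGR3B, LHB, MAPKAPK5, P2RY1, PNOC, PSME3, RAB9A, RHOQ, SYAP1, TAF7, USP32 and VMA21. The other 19 had no HA or MYC peak in clone TB: ANKRD6, CD52, CX3CR1, DR1, FTCDNL1, GLRX3, GPRIN1, IGSF9B, IRS1, LHX2, MYD88, NNT, RAPGEF1, ROBO3, RTL8B, SMIM24, TMTC2, UBXN11 and UNC119B. 26 of the 77 shared their region with another gene, as CD52 did with UBXN11.

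Among MYC-alone genes, 21 had regions of both antibodies in clone TB, among them AKR1B1, ATP10D, CYB5R1, DUSP3, FUT4, GLT8D1, GMFG, KCTD16, LASP1, NCOA5, PCGF6, POLR2H, SENP5, SLC6A13, SNAPC5, SPCS1, STX8, SYNM, YIPF5 and ZNF573. An HA region without a MYC region was found at 13: DIS3L, FNBP1L, NIPAL2, NUAK2, PEX7, PGBD1, PPA2, RAPGEF3, SECTM1, SGSM3, SLX9, ZNF488 and ZNF638. A MYC region without an HA region was found at 34, among them the signalling inhibitors SPRED3 and SPRY4, the TFIIH subunit genes GTF2H3 and GTF2H4, IKZF4, BMP6, HSPG2, RAC3, GSDMD, ANKRD28, ARHGAP22, AUH, B4GAT1, DNALI1, DUOXA1, DUOXA2, EFHD1, EIF2B1, FAM118B, GGN, KIDINS220, KIF4A, LOC124900165, METTL22, MRFAP1L1, PDZD11, QRSL1, RPUSD4, RTN4IP1, SSBP1, STX18, TMEM248, VARS2 and ZNF32. TR4 also carries MYC in clone TB, and 8 of these 34 genes had no peak in the MYC and TR4 libraries of clone T and the TR4 libraries of clone TB. At 37 genes at most 1 library of each antibody had a peak, among them ADO, ALOX5, ANGEL1, BMS1, BRSK2, CDKAL1, CORO1A, CSTPP1, DCAF10, EPHB6, FBXO28, GBX1, GIPR, H3C6, HMOX2, HS6ST1, HYAL2, INSRR, LAMA5, MIPOL1, MOCS2, NIBAN1, NRF1, ORAI3, RAB3GAP1, RIBC1, RIN3, RNF213, RPP30, SMARCAL1, SMC1A, SMIM8, SMURF1, TNKS2, VWA7 and ZNF770.

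The largest group, 61 of the 166 MYC-alone genes (36.7%), had no HA or MYC peak in clone TB. For HA-alone genes that share was 24.7%. No gene family in this MYC-alone group was counted against all genes. It held the mitochondrial ribosomal protein genes MRPL19, MRPL22, MRPL23 and MRPS5, the haematopoietic signalling genes SYK and VAV1, the calcium channel genes CACNA1C and CACNG3, the histone variant genes H2AB2 and H2AB3, and the lysosomal genes CTSB and LIPA. Its other members were BPNT1, C10orf53, CCDC112, CCDC3, CNFN, CRACD, DOCK6, F10-AS2, FYCO1, GDF11, HR, HS3ST6, IFIT5, LOC124900576, LRRC25, LYPD6, MAGI1, MANEAL, MATN2, MSX1, MYADM, OBI1, OPTN, PCDH1, PIGG, PLAAT5, RALGPS2, RUFY1, SLC1A4, SLC29A2, SMAGP, SRARP, SRRM3, SYT11, TANC2, THRA, TRMT2B, TULP2, UAP1L1, UBE2D1, UBXN10, VOPP1, VPS33A, WSCD2, XRCC2, ZDHHC18, ZDHHC8, ZNF329 and ZNF721. In all 15 target libraries of the other clones together, 14 of 77 HA-alone and 47 of 166 MYC-alone genes had no peak. The matching shares over all protein-coding genes are not given here. Of 8083 genes with both antibodies in clone B, 276 had no HA peak and 226 no MYC peak in clone TB. These numbers were 30 and 29 of the 77 HA-alone genes, and 91 and 73 of the 166 MYC-alone genes.

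Erythroid gene lists were counted for regions of each antibody, with no test. Of 24 heme and iron genes, 22 had regions of both antibodies, beside 40.3% of all protein-coding genes. None had one antibody alone, which is near the shares over all genes of 0.384% for HA and 0.828% for MYC. FTL had folds of 44.3, 53.6 and 16.9 with HA and 40.8, 48.9 and 17.2 with MYC. FECH, which inserts iron into heme, had 26.3, 36.2 and 28.8 with HA and 29.1, 40.4 and 19.4 with MYC. Of 20 erythroid transcription factor genes 15 had both, among them ZFPM1, the GATA1 partner FOG1 (52.4, 62.4 and 34.7 with HA; 78.1, 59.7 and 48.4 with MYC), and KLF1, the activator of adult globin (31.5, 45.1 and 22.03; 36.6, 43.1 and 22.5). GATA2 and SOX6 had an HA region with 1 MYC library, and GFI1B and LMO2 a MYC region with 1 HA library. Over all genes these 2 classes held 1.63% and 3.55%. Of 24 erythropoietin and KIT signalling genes 19 had both, such as EPOR, the erythropoietin receptor gene (39.9, 63.8 and 29.1; 41.1, 62.2 and 25.9), and AKT1 and KIT had a MYC region with 1 HA library. Of 24 red cell membrane genes 15 had both, and CD47, EPB41 and RHD had a MYC region with 1 HA library.

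Of 10 globin genes, 6 had an HA region and the same 6 a MYC region, beside 42.4% and 44.7% of all genes: HBB, HBZ, HBM, HBA2, HBA1 and HBQ1. At HBB, the adult β-globin gene, the folds were 14.8, 24.9 and 10.5 with HA and 20.3, 13.1 and 6.30 with MYC. At HBA1 they were 28.2, 24.7 and 16.5 with HA and 26.6, 37.0 and 13.4 with MYC, and at HBM 16.9, 23.9 and 16.5 against 16.5, 21.8 and 18.2. HBZ and HBQ1 had 2 HA libraries and 3 MYC libraries. In clone B the fetal genes HBG1 and HBG2 had a peak in 1 library of each antibody, replicate 1 in both cases. HBG1 folds were 5.45 and 5.42, and HBG2 folds 8.23 and 6.84. In clone TB, which carries the same BCL11A tags, both genes had peaks in 3 of 3 HA and 3 of 3 MYC libraries. HBG1 and HBG2, and HBA1 and HBA2, are near-identical copies, so their reads cannot always be told apart. HBD had a peak in 1 HA library, and HBE1 in none.

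Regulators of fetal globin and corepressor genes were counted beside the 40.3% of all genes with both. Of 22 fetal globin regulator genes 18 had both, including ZBTB7A, a second γ-globin repressor (30.1, 40.3 and 18.2 with HA; 35.1, 41.2 and 17.5 with MYC). Of 22 corepressor genes 17 had both, including the NuRD subunit genes HDAC1 (23.2, 28.7 and 9.11; 31.7, 31.2 and 11.6) and GATAD2B (22.99, 35.5 and 15.9; 27.4, 38.0 and 9.72). No gene of these lists was HA alone or MYC alone, where the shares over all genes are 0.384% and 0.828%, and a count of 0 in lists of this size is near that background.

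Genes of the MYC network and known MYC targets had similar counts with each antibody, beside 42.4% of all genes with an HA region and 44.7% with a MYC region. Of 13 MYC network genes, 10 had an HA region and the same 10 a MYC region. MXD1, which encodes a MAX partner that opposes MYC, had folds of 93.8, 114 and 22.7 with HA and 111, 129.6 and 39.7 with MYC. Of 31 nucleolar target genes 28 had an HA region, 27 a MYC region and 26 both. Of 24 nucleotide, polyamine and glycolysis targets the counts were 21, 20 and 19, with LDHA the one HA-alone gene. Of 79 cytosolic ribosomal protein genes 62 had an HA region, 60 a MYC region and 58 both, with RPL21 and RPS3 HA alone. Over all genes 0.384% were HA alone. RPL13A had folds of 58.7, 80.6 and 24.1 with HA and 70.3, 106 and 30.1 with MYC. In these 4 lists no gene was MYC alone, which is near the background of 0.828% and says nothing about the lists; no difference in counts was tested.

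Most marker genes of other cell types had no region of either antibody. Of 16 megakaryocyte and platelet genes 4 had an HA region and 3 a MYC region, of 15 B-lymphoid genes 1 and 1, of 14 neuronal genes 2 and 1, and of 12 liver genes 2 and 2, where 42.4% and 44.7% of all genes had one. No difference from all genes was tested. RAG1 and ITGA2B had an HA region with 1 MYC library, as did GRIN1, and EBF1 the reverse. GP1BB, a platelet glycoprotein gene, was the strongest of these (42.6, 34.0 and 31.8 with HA; 55.8, 59.4 and 28.2 with MYC).

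Motif shares in promoters, tested by library, gave no called difference between the antibodies, and with 3 libraries against 3 none was possible. The search covered the 300 bases from 250 before to 50 after the start site in 15843 RefSeq promoters, on both strands, for 6 motifs. TGACCA is the motif known for BCL11A and CACGTG that of MYC with MAX. CCAAT is known as the box of NF-Y, CCGGAA as the core of ETS factor sites, AGGTCA as the nuclear receptor core site and AGATAA as the site of erythroid zinc-finger activators such as GATA1. TGACCA was in 8.33% ± 0.676 of promoters with an HA peak and 8.19% ± 0.399 of those with a MYC peak (SD, n = 3 each; exact permutation test, p = 0.8, adjusted p = 0.873), against 9.32% of all promoters. CACGTG was in 11.7% ± 0.232 and 11.8% ± 0.243 (SD, n = 3 each; exact permutation test, p = 0.9, adjusted p = 0.9), against 8.88% of all. CCAAT was in 44.6% ± 3.11 and 43.7% ± 2.97 (SD, n = 3 each; exact permutation test, p = 0.5, adjusted p = 0.857), against 36.4% of all. By gene class, CACGTG was in 10 of 71 promoters of HA-alone genes (14.1%), 14 of 142 of MYC-alone genes (9.86%) and 11.98% of genes with both. TGACCA was in 2 of 71, 14 of 142 and 8.18%, and CCAAT in 29.6%, 20.4% and 44.7%. CCGGAA was in 35.2%, 26.8% and 35.5%, against 22.9% of all promoters. These shares by class are descriptions, since promoters are not replicates.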

How the data were processed

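The CUT&RUN peaks were used as deposited, with a separate list for every library. The genome was GRCh38 and the tools MACS2 2.1.4, Trimmomatic, SAMtools, Picard and Bowtie2, per the submitters' processing notes, which do not tie a tool to a step. Every peak carries the fold enrichment (a ratio) and the −log10 q-value that the authors' peak caller gave it, and the offset of its summit. Read depth is unknown, so no interval that needs it is given.

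Peaks of 24 libraries were merged at 1 shared base, and 7349 regions that overlapped IgG peaks were dropped. Libraries were the replicates in exact permutation tests of 3 against 3, two-sided unless stated, with Benjamini-Hochberg adjustment over 12 library-level measures at 0.05; regions and genes were counted without a test. Gene records, promoters and sequences came from RefSeq tables of GRCh38.p14; the gene table has no strand or exons, so both gene ends were used with 1 kb windows and exon, intron or UTR is not given. Of the symbols in 15 gene lists, 343 genes matched. The named genes are all globin genes, list members of one antibody, up to 4 per list with peaks in the most libraries, the first 12 HA-alone and MYC-alone genes and 8 regions of each, by libraries and then mean fold percentile, and 6 shared regions; the one-antibody genes are also named, as the comparison asks for them, except a few that are not reported here, and other names were chosen after their values were seen. The members, lists and tests were chosen with earlier results of these data known.

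Replicate numbers were taken to pair the samples. The deviations of same-numbered HA and MYC libraries from their group means correlated at 0.128, 0.141 and 0.241 over 46918 regions. Those of other numbers correlated at −0.126 to −0.0224. Deviations cancel within an antibody, so same-number and other-number values are not independent, and list length was not taken out. These correlations do not say how the replicates were made. The pairing comes from the numbers in the labels. Alternatives were a stricter q-value, equal list lengths, other overlap, merging, IgG, group and window rules, each library left out and a replicate block. The code of the class assignment was checked on 20000 simulated regions, and 100.0% of those given peaks were classed as simulated. The simulation held no background peaks and no antibody with a peak in a single library. It therefore checks the code and says nothing about how weak sites were classed. Python 3.11.15, pandas 2.3.3, NumPy 2.4.6, SciPy 1.17.1 and Matplotlib 3.10.9 were used.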

Additional observations from a re-analysis of the deposited data

How the results depend on the processing

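The shared shares and one-antibody counts kept their size (within 1.5 times) when summits within 100 bases were required, when only the 6 libraries and IgG were merged, with the IgG library of clone B alone and with no IgG filter, and, in an alternative chosen after seeing the data, without replicate 3 of both antibodies (87.0% of HA and 78.6% of MYC regions shared; 536 and 1218 one-antibody regions; 75 and 169 genes). Requiring 3 of 3 libraries left 28 HA-alone and 57 MYC-alone regions and 1 and 8 genes. Requiring 1 of 3 gave 7981 and 12338 regions and 466 and 764 genes, with 76.9% of HA regions shared. Equal list lengths gave 563 MYC-alone regions and 192 HA-alone genes. Equal lengths also turned 3 differences that were not called: gene ends (−0.391 percentage points), TGACCA (−0.0995) and summit distance (0.278 bases). At −log10 q of at least 5, CACGTG turned to 0.0223 and the difference of clones B and TB in peak width to −2.67 bases. At that q the difference of the ratios in clone TB was 0.503 against 0.316, and the difference of clones at gene ends 2.11 points. UNC119B and KARS1 turned at 5 kb, both to −1, and named one-antibody genes that fell to a difference of 0 are given with their values in the report (UNC119B also with equal lengths). The first listed start sites cover 15843 of 20037 genes and 66 of the 84 named ones, so the other 18 have no value there; with them the one-antibody genes were 68 and 133. The causes were not tested, apart from the shorter lists and smaller groups these settings build in.

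Leaving out each library in turn, the shared percent was 51.8 to 97.1 of HA and 44.4 to 95.3 of MYC regions, HA-alone regions 56 to 1808, MYC-alone regions 97 to 3368, HA-alone genes 2 to 302 and MYC-alone genes 10 to 686. A region or gene then needed a peak in both libraries left of that antibody, so these ranges also hold a stricter rule. HA minus MYC was −7960 to 2773 for list length, −4.17 to 0 bases for width, 0.590 to 2.91 for gene ends, −2.26 to 7.03 for clone T MYC regions, −1.78 to 11.5 for clone TB HA regions and −0.0843 to 0.321 for IgG. Between minus within antibodies was −1 to 0.750 bases for summit distance, and within minus between −0.0517 to −0.0296 for the Jaccard index. For motifs HA minus MYC was −0.123 to 0.131 (AGATAA), 0.0550 to 0.328 (AGGTCA), −0.170 to 0.0778 (CACGTG), −0.887 to 2.60 (CCAAT), −0.135 to 0.684 (CCGGAA) and −0.233 to 0.424 (TGACCA).

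With the replicate block, list length differed by −2304 peaks, gene ends by 1.57 percentage points and clone TB HA regions by 4.66. Each had p = 0.25 (exact sign-flip test, adjusted p = 0.429), the smallest p this test can give. With a threshold of 0.05 the block could therefore give no call. Peak lists without read counts limit what can be said of weak sites.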
